A study of Mus musculus with 8 samples.

Results

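The genes described here are 112 nuclear genes of oxidative phosphorylation (OXPHOS), out of 34745 genes in the deposited table of mouse heart RNA-seq. They were taken by annotation and not by any measured value. Of 129 genes that the table assigns to the KEGG pathway of oxidative phosphorylation, the 13 genes of the mitochondrial genome and the 4 genes of complex II, which also belong to the citrate cycle, were set apart. By symbol, 36 of the 112 genes encode subunits of complex I, 8 of complex III, 18 of complex IV and 15 of complex V. A further 24 encode the V-ATPase, a proton pump of lysosomes and other vesicles that the pathway also lists, and 11 fit none of these groups (Atp12a, Atp4a, Atp4b, Cox10, Cox11, Cox15, Cox17, Lhpp, Ppa1, Ppa2 and Yjefn3). Ndufa4 is counted with complex I by its symbol, although its protein is known as a subunit of complex IV.

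The hearts came from male db/db mice, a model of type 2 diabetes in which the leptin receptor is defective in all tissues, and from male db/m mice (genotype label db/+), which carry 1 copy of the db mutation and served as normal controls. Both genotypes were of the strain labelled C57BL/KsJ and were untreated, and hearts were taken at 4, 12, 24 and 32 weeks of age. Each genotype and age had 1 library, which gave 4 libraries of db/db and 4 of db/m, and the sources do not say whether a library holds 1 heart or several, though the methods set aside more db/db mice for RNA-seq than there are db/db libraries. A p-value here therefore measures the spread between libraries after age or genotype is taken into account, and at a single age there is no replicate and no test.

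In the inner membrane of mitochondria, complex I takes electrons from NADH, complex III passes them to cytochrome c, complex IV hands them to oxygen, and the protons pumped on the way drive complex V, the ATP synthase. Most subunits are encoded in the nucleus and imported, and a small set is encoded by the mitochondrial genome. The heart draws most of its ATP from this chain, and several complex IV subunits exist as a heart and muscle isoform and as an isoform made in most tissues.

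Library totals ran from 14445436 counts (db/m, 4 weeks) to 26676268 counts (db/db, 24 weeks). The 112 genes took 1.63% of the counts of the db/m library of 4 weeks and 1.73% to 2.03% of the others. Levels below are TMM-scaled CPM, that is, counts relative to library totals after the libraries were scaled to each other. Markers of cardiomyocytes were strong in every library, with a sum over 6 genes between 48680 and 57680 CPM. The db/m library of 4 weeks stood apart: 8 fast skeletal muscle markers summed to 125 CPM in it and to 0.92 to 2.56 CPM in the other 7. Its sum over 5 fibroblast markers was also the highest, at 2213 CPM against 638.5 to 1696 CPM, which came from the collagens Col1a1, Col1a2 and Col3a1, while Dcn (368.3 CPM) and Pdgfra (108.2 CPM) lay within the range of the other libraries. Atrial markers (5 genes) summed to 346 CPM in db/m at 32 weeks, 246.7 CPM in db/db at 24 weeks and 161 CPM in db/db at 4 weeks, and to 40.01 to 79.6 CPM in the other 5. Of these 5 markers, Myl7 and Sln had 0 counts in db/m at 4, 12 and 24 weeks and in db/db at 12 weeks. Markers of fat summed to 3.67 CPM or less in every library.

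Of the 112 genes, 101 had enough counts to be tested across libraries. The other 11 were Atp12a, Atp4a, Atp4b, Atp6v0a4, Atp6v0d2, Atp6v1b1, Atp6v1c2, Atp6v1e2, Atp6v1g3, Cox7b2 and Cox8c, and 7 of them (Atp12a, Atp4a, Atp4b, Atp6v1b1, Atp6v1c2, Atp6v1g3 and Cox8c) had 3 counts or fewer in every library. Atp4a, Atp4b and Atp12a encode proton pumps known from stomach and colon, and Cox8c and Cox7b2 encode isoforms known from testis. Per length, as the authors' FPKM, subunits of complexes III and IV stood highest, with medians over genes of 158 and 130 FPKM. The medians were 74.0 FPKM for complex V, 39.1 for complex I, 4.49 for the V-ATPase and 3.89 for the remaining genes. Cox7a1, the heart and muscle isoform of a complex IV subunit, was the highest of all 112 genes at a median of 698 FPKM over the 8 libraries. Atp5a1 and Atp5b, the catalytic core of complex V, followed with Cox6b1 and Cox6a2 of complex IV at 493 to 557 FPKM, and the highest median of a V-ATPase subunit was 46.8 FPKM (Atp6v1d). These ranks rest on the gene lengths implied by the deposited values, such as 364 bases for Cox7a1.

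**Figure D1:**
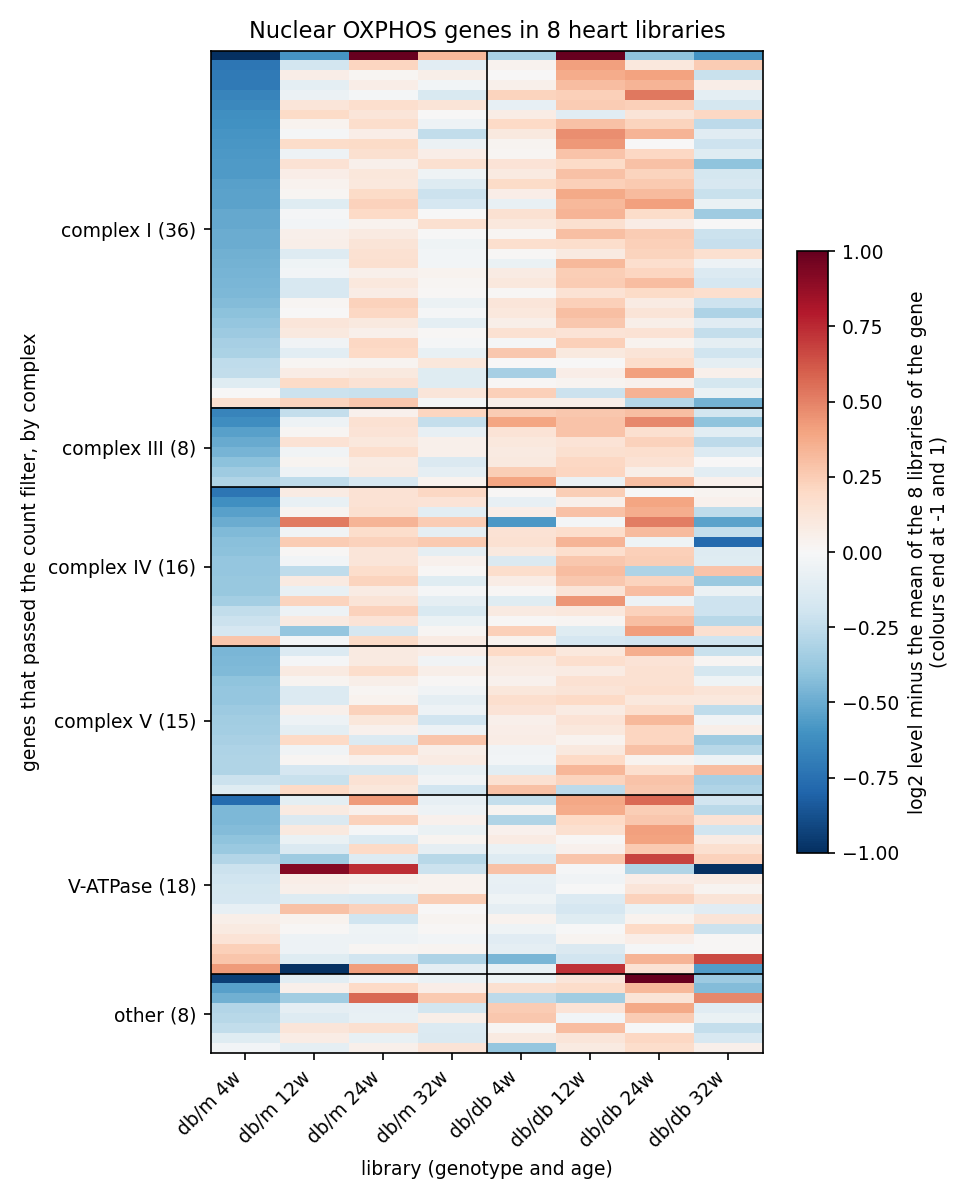
Each row is 1 of the 101 tested genes, grouped by complex, and each column is 1 library. Colour is the log2 level (TMM-scaled CPM plus 0.5) minus the gene's mean over the 8 libraries, with colours ending at -1 and 1; the db/m library of 4 weeks is blue in most rows of complexes I, III, IV and V, while the V-ATPase rows are mixed.

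The db/m heart of 4 weeks had the least RNA of these genes. It was the lowest of the 8 libraries for 78 of the 101 tested genes (77.2%), where the same held for 22.4% of all 15273 genes tested. This covered 32 of 36 genes of complex I, 8 of 8 of complex III, 11 of 16 of complex IV and 12 of 15 of complex V, but 9 of 18 of the V-ATPase. Summed over the 112 genes, the level in this library was 14210 CPM, which was 72.2% of the median of the 6 libraries of 12 to 32 weeks. The db/db library of the same age was at 20080 CPM, or 102% of that median. The highest library was db/db of 24 weeks for 43 of the 101 genes (18.4% of all genes) and db/db of 12 weeks for 32 (12.0%). The lowest was db/db of 32 weeks for 11, or 10.9%, below the 13.3% of all genes. In the plot of all tested genes the low column of db/m at 4 weeks runs through the respiratory complexes as a block.

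**Figure D2:**
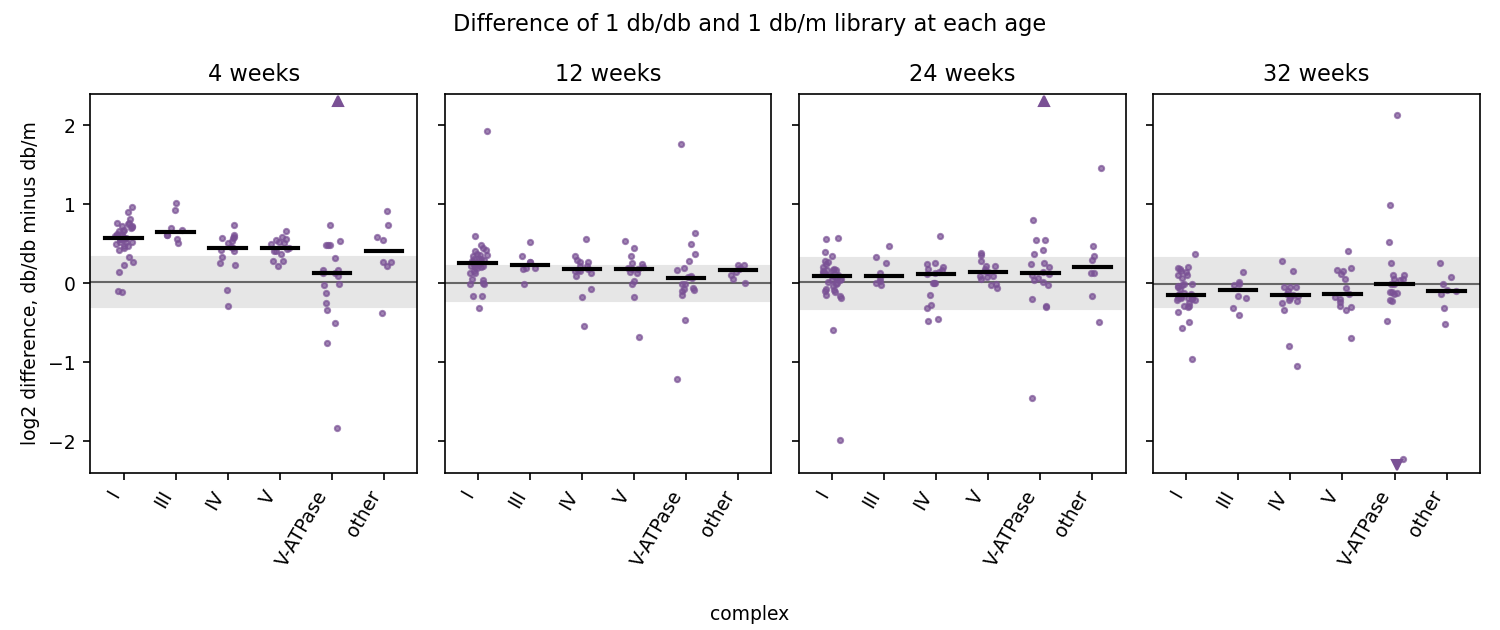
Each point is the log2 difference of 1 gene, db/db minus db/m, at 1 age (pairs holding 10 counts or more), by complex; black bars are medians, the grey line and band are the median and the middle 50% of all genes, and triangles mark points beyond the axis. The medians of complexes I, III, IV and V lie above the band at 4 weeks and below the line at 32 weeks.

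The difference between db/db and db/m was largest at 4 weeks and had the opposite sign at 32 weeks under TMM scaling. With total counts the median at 32 weeks was 0.021, and with ratios of the deposited FPKM values 0.026. Under TMM scaling the median log2 difference over the OXPHOS genes was 0.50, 0.19, 0.11 and -0.13 at 4, 12, 24 and 32 weeks, beside 0.02, 0.00, 0.02 and -0.01 over all genes with at least 10 counts in the pair. At 4 weeks 90 of 103 genes were higher in db/db (51.9% of all genes were), and at 32 weeks 30 of 103 were (48.8%). In between, 80 of 102 were at 12 weeks (50.5%) and 74 of 104 at 24 weeks (51.6%). A fold of at least 1.5 was passed upwards by 32 genes and downwards by 2 at 4 weeks, where 11.9% and 14.1% of all genes passed it. The numbers were 4 up and 2 down of 102 at 12 weeks (8.66% and 9.56% of all genes), 4 up and 3 down of 104 at 24 weeks (14.3% and 15.1%) and 2 up and 6 down of 103 at 32 weeks (15.0% and 12.5%), so that at these ages the share past the fold was below that of all genes. Among genes with 100 counts or more in the pair, 30 were past it upwards and 1 downwards at 4 weeks (9.37% and 7.19% of all such genes) and 4 and 0 at 12 weeks (4.83% and 4.55%). With that minimum the numbers were 3 up and 2 down at 24 weeks (10.2% and 9.72%), then 1 up and 4 down at 32 weeks (9.47% and 8.79%). The count at 4 weeks depended on the scaling: with total counts only, which moved the median of all genes at 4 weeks to -0.18, it was 7 up and 3 down, and the median of the OXPHOS genes was 0.31. Relative to all genes the median was 0.49 at 4 weeks and -0.12 at 32 weeks under either scaling. Scaling shifts all genes of a pair alike, so these relative values could not change with it and are no check of the scaling.

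Markers of heart muscle also differed between the libraries of an age. The 6 cardiomyocyte markers (Myh6, Tnnt2, Tnni3, Actc1, Myl2 and Ryr2) had median log2 differences of 0.59, 0.21, 0.08 and -0.04 at 4, 12, 24 and 32 weeks, with 6, 5, 5 and 1 of the 6 higher in db/db. Myh6, the most abundant of them by counts, differed little at 4 weeks, with 35900 CPM in db/m and 37170 CPM in db/db, and the sum over the 6 genes varied 1.18-fold over the 8 libraries. At 4 weeks db/m also held the skeletal muscle markers described above, and db/db the atrial ones. Fibroblast markers had median differences of -0.51, -0.14, 0.00 and -0.82, with 2, 2, 3 and 0 of 5 higher in db/db. Endothelial markers (Pecam1, Cdh5, Kdr and Tie1) had medians of -0.29, -0.22, -0.35 and -0.10, with 0, 0, 0 and 1 of 4 higher in db/db, at sums of 741.2 to 1026 CPM. In bulk RNA fewer cardiomyocytes and less of these RNAs per cardiomyocyte cannot be told apart. The atrial sum differed between the genotypes by 161 against 66.7 CPM at 4 weeks, 40.01 against 73.0 at 12 weeks, 246.7 against 79.6 at 24 weeks and 52.4 against 346 at 32 weeks (db/db first), and the part of these markers in the OXPHOS differences was not tested.

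**Figure D3:**
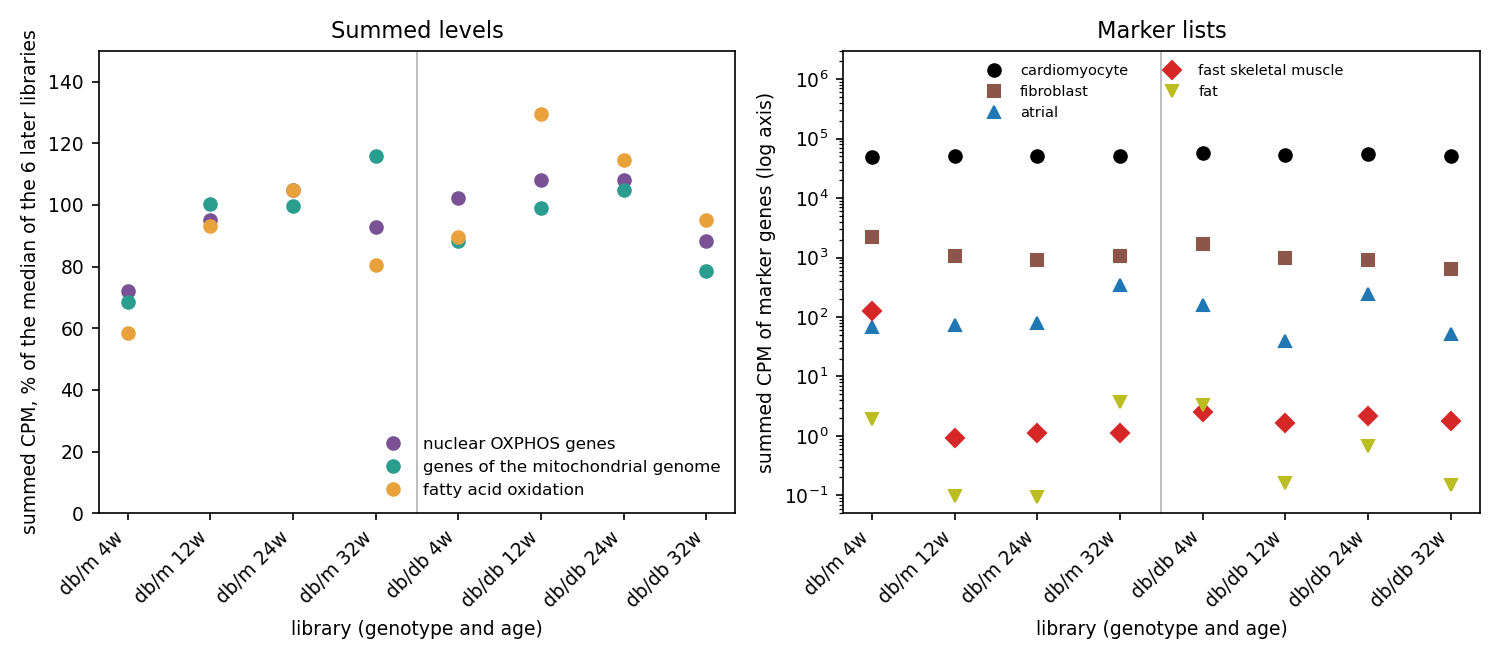
The left panel gives the summed TMM-scaled CPM of the nuclear OXPHOS genes, the 13 genes of the mitochondrial genome and 11 genes of fatty acid oxidation in each library, as a percentage of the median of the 6 libraries of 12 to 32 weeks, and the right panel gives the summed CPM of marker genes on a log axis. All 3 sums on the left are lowest in db/m at 4 weeks (72.2%, 68.7% and 58.5%), the library in which the fast skeletal muscle markers reach 125 CPM.

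At 4 of 4 ages 20 of 102 genes were higher in db/db (11.0% of all genes) and 4 were lower (10.8%). The genotype difference became smaller or more negative at every step from 4 to 12 to 24 to 32 weeks in 39 of the 102 genes with enough counts in each pair (38.2%), which held for 9.01% of all genes. Among them were Ndufa1, Ndufa10, Ndufa4, Uqcr10, Uqcr11, Cox7a1, Cox6a2, Cox4i1, Atp5b and Atp5c1. The opposite order, a larger value at every step, was found in 2 of the 102 (6.07% of all genes). The fit across all 8 libraries of a linear change of the genotype difference with age gave a median of -0.18 log2 units per 10 weeks over the 101 genes (all genes: -0.02), with 92 of 101 below 0 (54.9% of all genes) and 9 above 0 (45.1%). An unadjusted p under 0.05 was reached by 41 genes in the falling direction (40.6%, against 7.05% of all genes) and by 1 in the rising direction, Tcirg1 (4.73% of all genes). None passed an adjusted p of 0.05 in edgeR's quasi-likelihood test, nor did any of the 15273 genes, while the Wald test of DESeq2 called Cox7a1 and Tcirg1 of the OXPHOS genes and 128 of 15237 genes in all (0.84%). The 41 genes comprised 22 of 36 of complex I, 6 of 8 of complex III, 5 of 16 of complex IV, 4 of 15 of complex V, 3 of 18 of the V-ATPase and 1 of the remaining 8. The count depended on which ages were fitted: it was 3 without 4 weeks, 18 without 12 weeks, 47 without 24 weeks and 16 without 32 weeks, with medians of -0.13, -0.19, -0.19 and -0.18. With total counts only it was 7 and the median was -0.07.

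Complex I, the entry point for electrons from NADH, had 22 of its 36 genes among those 41. Ndufa10, an accessory subunit, was at 252, 336, 387 and 332 CPM in db/m of 4, 12, 24 and 32 weeks and at 360, 413, 366 and 271 CPM in db/db. The db/db value was thus the higher one at 4 and 12 weeks and the lower one at 24 and 32 weeks, and the levels of the genotypes overlapped. Its log2 difference was 0.52 at 4 weeks (SE of counting 0.03) and -0.30 at 32 weeks (0.03), and the fitted change was -0.29 per 10 weeks (SE 0.06, adjusted p = 0.314 in edgeR). Ndufa4 was at 115, 179, 198 and 169 CPM in db/m and at 201, 215, 205 and 146 CPM in db/db, so that db/m at 4 weeks stood below all other libraries. Its change was -0.34 per 10 weeks (SE 0.08, adjusted p = 0.319). Ndufa1, a small membrane subunit encoded on the X chromosome, ran from 33.6 to 55.4 CPM in db/m and from 37.5 to 61.2 CPM in db/db, and its difference went from 0.68 at 4 weeks to -0.36 at 32 weeks.

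The subunits that carry the iron-sulfur clusters and the flavin of complex I were also higher in db/db at 4 weeks. Ndufs1, the largest of them, was at 457, 651, 639 and 558 CPM in db/m and 623, 723, 622 and 554 CPM in db/db. Its log2 difference was 0.45 at 4 weeks and -0.01 at 32 weeks, and the change with age of Ndufs1, Ndufs7 and Ndufv1 did not reach an unadjusted p of 0.05. Ndufv1, which binds NADH, differed by 0.33, 0.27, -0.17 and -0.08 at the 4 ages, and Ndufs7 and Ndufs8, next to the ubiquinone site, by 0.49 and 0.52 at 4 weeks and by 0.18 and -0.26 at 32 weeks. Of the 36 genes of complex I, 34 were higher in db/db at 4 weeks (median 0.58), 18 of them past 1.5-fold, and 27 were lower at 32 weeks (median -0.15), 1 of them past 1.5-fold. Ndufc1 went from 0.71 to -0.57 and Ndufa5 from 0.56 to -0.31. Ndufb5 differed by 0.14, -0.16, -0.10 and -0.05. Ndufs6 differed by 0.23, 0.00, 0.57 and -0.19, most at 24 weeks, and Ndufb4, at 4.30 to 7.52 CPM, had its largest difference at 24 weeks (0.34).

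Some complex I genes stayed on the higher side in db/db. Ndufc2, a small membrane subunit, was at 19.8, 30.4, 31.3 and 28.4 CPM in db/m and at 37.0, 37.5, 46.0 and 29.7 CPM in db/db. Ndufv3, an accessory subunit of the NADH-binding module, was at 43.3, 64.9, 68.4 and 55.1 CPM in db/m and at 70.0, 90.4, 82.8 and 60.6 CPM in db/db. Both were higher in db/db at 4 of 4 ages, though the ranges of the genotypes overlapped, and the fitted genotype effects over the 4 ages were 0.46 (SE 0.15, adjusted p = 0.371) and 0.40 (SE 0.12, adjusted p = 0.351) in edgeR. Ndufab1, the acyl carrier protein, had an effect of 0.40 (SE 0.16) but was lower in db/db at 24 weeks (-0.11). Ndufa11 (0.38), Ndufa7 (0.30) and Ndufa8 (0.26) were also higher at 4 of 4 ages. In contrast Ndufa4l2, a paralog of Ndufa4 known to be induced by low oxygen, stood lower in db/db than in db/m at all 4 ages, with 7.49, 7.82, 8.12 and 6.56 CPM in db/m and 6.95, 6.95, 5.35 and 4.65 CPM in db/db (effect -0.34, SE 0.16, adjusted p = 0.47).

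Ndufs5 departed from the rest of the complex. It was at 5.26, 8.45, 38.6 and 16.4 CPM in db/m and at 10.2, 32.0, 9.69 and 8.40 CPM in db/db, so that each genotype had 1 library far above its other 3. The log2 difference was 0.96, 1.92, -1.99 and -0.96 at the 4 ages. Its transcripts share 26.5% of their 31-base stretches with the gene BC002163, which was at 769 to 2169 counts per library, and the log2 difference of the summed counts of both genes was 0.69, 0.33, 0.06 and -0.25. The split of reads between the 2 genes is therefore uncertain, and the level of Ndufs5 alone is uncertain with it.

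Complex III, which oxidizes ubiquinol, was the complex with the largest difference at 4 weeks, a median of 0.65 with 8 of 8 genes higher in db/db and 6 past 1.5-fold. Uqcr10, a small accessory subunit, was at 81.3, 121, 139 and 106 CPM in db/m and at 165, 153, 175 and 94.7 CPM in db/db. The db/db library of 4 weeks was thus 1.02 log2 units above its db/m counterpart (SE of counting 0.05), the largest of the OXPHOS genes with at least 100 counts over that pair, and at 32 weeks the difference was -0.17. Uqcr11 was at 34.9, 46.9, 57.0 and 64.5 CPM in db/m, which stood higher at each later age, and at 66.3, 67.0, 68.2 and 48.6 CPM in db/db, which stood lowest at 32 weeks. Its differences were 0.92, 0.51, 0.26 and -0.41, and the fitted change was -0.43 per 10 weeks (SE 0.09, adjusted p = 0.286 in edgeR). The catalytic subunits Cyc1, which holds cytochrome c1, and Uqcrfs1, the Rieske iron-sulfur protein, differed by 0.60 and 0.68 at 4 weeks and by -0.01 and -0.02 at 32 weeks. Uqcrq (0.69, 0.19, 0.47 and 0.01) and the core subunit Uqcrc2 (0.51, 0.18, 0.06 and 0.14) were not below db/m at any age. Uqcrb (0.61, -0.01, 0.13 and -0.31) and Uqcrh, the hinge protein (0.56, 0.19, 0.00 and -0.20), were.

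**Figure D4:**
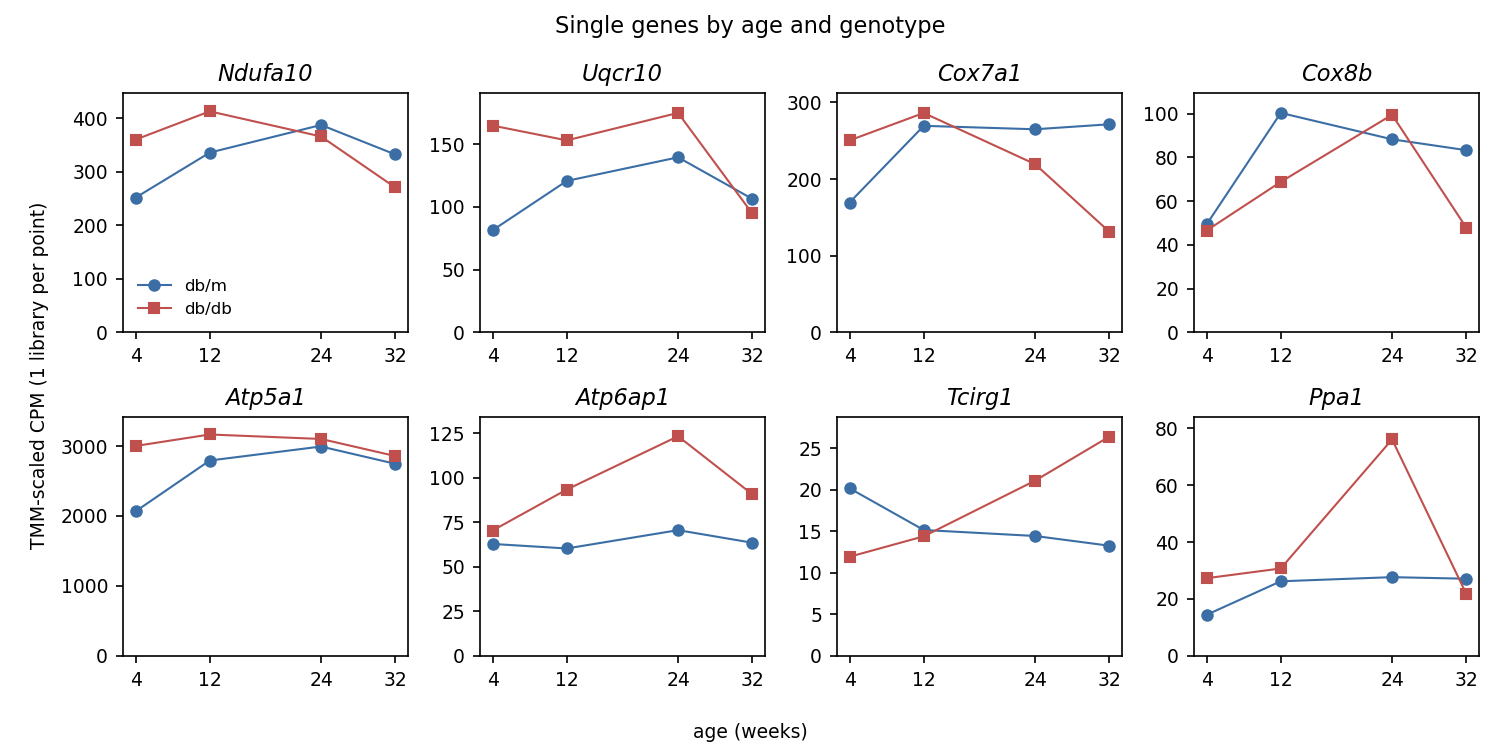
TMM-scaled CPM of 8 genes against age, with blue circles for db/m and red squares for db/db, and 1 library per point. Cox7a1 in db/db is at 131 CPM at 32 weeks against 272 CPM in db/m, and Atp6ap1 and Tcirg1 of the V-ATPase stand higher in db/db at 24 and 32 weeks.

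Complex IV, cytochrome c oxidase, had 2 of 16 genes lower past 1.5-fold at 32 weeks, where 12.5% of all genes were. They were Cox7a1 and Cox8b, both heart and muscle isoforms. In complexes I, III, IV and V together 4 of 75 genes were, the other 2 being Ndufs5 and Atp5k. Cox7a1 was at 169, 270, 265 and 272 CPM in db/m, flat from 12 weeks on, and at 250, 286, 220 and 131 CPM in db/db, lowest at 32 weeks. Its log2 difference went from 0.56 at 4 weeks through 0.09 and -0.27 to -1.05 at 32 weeks (SE of counting 0.03). The fitted change of -0.53 per 10 weeks (SE 0.08) had the smallest p of all the OXPHOS genes and an adjusted p of 0.267 in edgeR, and leaving out 24 weeks brought it under 0.05 with a change of -0.57, as it did for 38 of 15236 genes. It was not called without 4, 12 or 32 weeks. Cox8b was at 49.3, 100.3, 88.2 and 83.3 CPM in db/m and at 46.5, 68.8, 99.5 and 47.9 CPM in db/db. It differed by -0.08, -0.55, 0.17 and -0.80, so that db/db was lower at 3 of 4 ages in no steady order. At 32 weeks the atrial markers stood at 346 CPM in db/m and 52.4 CPM in db/db, and their part in these differences was not tested.

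The core nuclear subunits of complex IV followed complexes I and III. Cox4i1 was at 380, 503, 584 and 485 CPM in db/m and at 572, 584, 644 and 439 CPM in db/db. Cox5a, with which it binds the catalytic core, differed by 0.50, 0.16, 0.11 and -0.04. Cox6c was higher in db/db at 4, 12 and 32 weeks (0.57, 0.56 and 0.27) and lower at 24 weeks (-0.48), with 385 to 568 CPM in db/m and 406 to 622 CPM in db/db. Cox6a1, the general isoform of its subunit, was higher in db/db at 4 of 4 ages (0.41, 0.27, 0.59 and 0.15), and its genotype effect was 0.36 (SE 0.12, adjusted p = 0.37 in edgeR). Cox4i2, an isoform known from lung and from low oxygen, was lower at 4 of 4 ages at 41 to 61 counts per library, and Cox6b2, known from testis, had 6 to 24 counts.

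**Figure D5:**
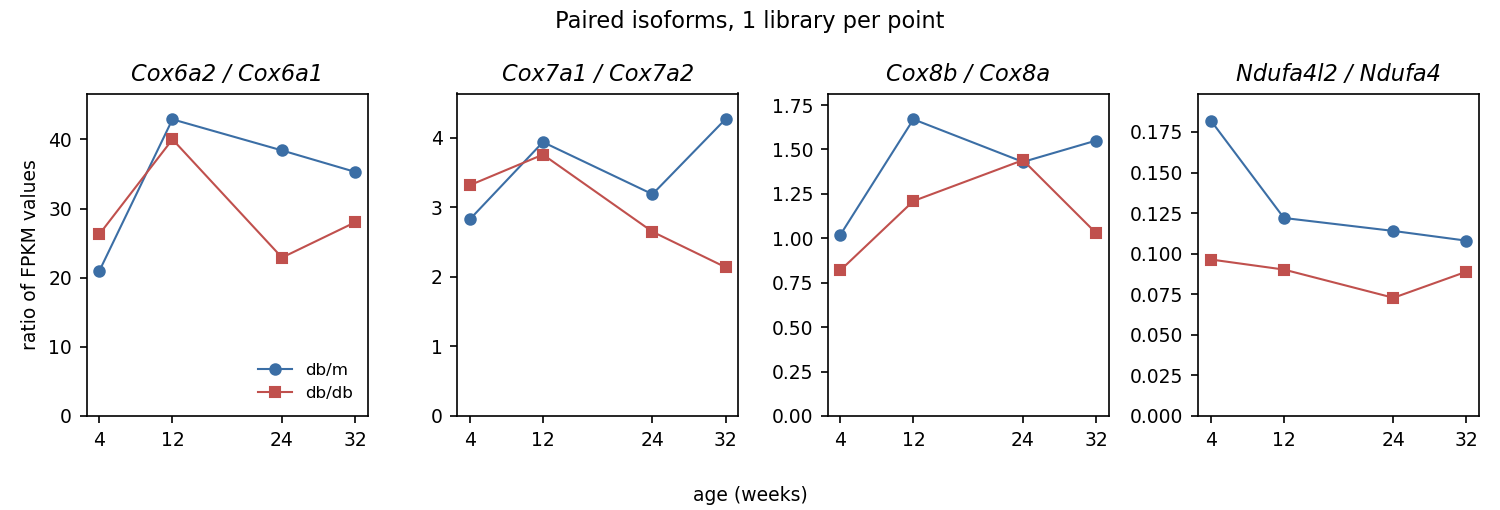
Ratio of the FPKM values of paired isoforms against age, with blue circles for db/m, red squares for db/db and 1 library per point. The ratio of Cox7a1 to Cox7a2 at 32 weeks is 4.27 in db/m and 2.14 in db/db, and that of Ndufa4l2 to Ndufa4 is lower in db/db at each age.

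Ratios within a library compare an isoform with its partner and do not depend on the scaling of libraries. The FPKM ratio of Cox7a1 to its general partner Cox7a2 was 2.83, 3.94, 3.19 and 4.27 in db/m and 3.32, 3.76, 2.65 and 2.14 in db/db, so that it was highest of all libraries in db/m and lowest in db/db at 32 weeks. The log2 difference of this ratio at 32 weeks was -0.997, with an SE of counting of 0.05. The ratio of Cox8b to Cox8a was 1.02, 1.67, 1.43 and 1.55 in db/m and 0.82, 1.21, 1.44 and 1.03 in db/db, and in both genotypes it was lowest at 4 weeks. The ratio of Cox6a2, the heart and muscle isoform, to Cox6a1 was also lower in db/m at 4 weeks (21.0) than in the other db/m libraries (35.3 to 42.9), while in db/db it was 26.3, 40.0, 22.9 and 28.0. The 3 lowest ratios of Cox6a2 to Cox6a1 were thus in db/m at 4 weeks, db/db at 24 weeks and db/db at 4 weeks, of which the last 2 carried atrial markers, as did db/m at 32 weeks with a ratio of 35.3. The ratio of Ndufa4l2 to Ndufa4 was 0.108 to 0.182 in db/m and 0.0728 to 0.0964 in db/db, with no overlap between the genotypes, on 94 to 176 counts of Ndufa4l2. Its log2 difference at 32 weeks was -0.28 (SE of counting 0.20). At 4 weeks it was -0.92, where Ndufa4 itself differed by 0.81 and Ndufa4l2 by -0.11. The ratio of Cox4i2 to Cox4i1 was 0.0108 to 0.0182 in db/m and 0.00728 to 0.0106 in db/db, on 41 to 61 counts of Cox4i2, and at 32 weeks its log2 difference of -0.20 was smaller than its SE of counting of 0.31. The ratio of Atp5g1 to Atp5g3, genes for the same ring subunit of complex V, varied little, from 0.146 to 0.169.

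Complex V, the ATP synthase, took the most counts of the complexes, with a summed level of 6684 CPM in db/m at 4 weeks and 8059 to 9841 CPM in the other libraries. Atp5a1, its alpha subunit, was at 2066 CPM in db/m at 4 weeks and between 2746 and 3165 CPM in the other 7 libraries. Atp5b, the catalytic beta subunit, was at 2601 CPM in db/m at 4 weeks and between 2803 and 3924 CPM in the others. At 4 weeks all 15 genes were higher in db/db (median 0.45), with Atp5e alone past 1.5-fold (0.66). At 32 weeks 9 were lower and 6 higher (median -0.14), and the ones that stayed higher at 4 of 4 ages were Atp5a1, Atp5d, Atp5f1, Atp5g1, Atp5g3 and Atp5l. Atp5c1, the gamma subunit, differed by 0.28 at 4 weeks and -0.34 at 32 weeks, Atp5h by 0.45 and -0.06, and Atp5o by 0.37 and -0.30. Atp5g2 reached 1.37 CPM at most. The genotype effects over the ages of Atp5d (0.27), Atp5g3 (0.29), Atp5l (0.38) and Atp5f1 (0.24) had unadjusted p under 0.05, with adjusted p of 0.402 to 0.418 in edgeR. Atp5k differed by -0.69 at 32 weeks, at 3.66 to 5.93 CPM over the 8 libraries.

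The V-ATPase, which acidifies lysosomes, gave smaller differences than the respiratory complexes at 4 weeks. Its median difference was 0.13, 0.07, 0.13 and -0.01 at the 4 ages. At 4 weeks 12 of 20 genes were higher in db/db (51.9% of all genes), and at 32 weeks 9 of 20 were (48.8%), near the share of all genes. The subunits of its cytosolic part varied unequally. Atp6v1a stood at 28.9 to 36.4 CPM and Atp6v1b2 at 58.7 to 72.0 CPM, ranges of 0.33 and 0.29 on the log2 scale, and Atp6v1c1 and Atp6v1h had ranges of 0.25 and 0.41. Those of Atp6v1d, Atp6v1e1 and Atp6v1g1 were 0.84, 0.82 and 0.80.

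A pair of V-ATPase genes were higher in older db/db hearts. Atp6ap1, an accessory protein encoded on the X chromosome, was at 62.9, 60.4, 70.7 and 63.6 CPM in db/m and at 70.4, 93.5, 123 and 90.8 CPM in db/db. All db/db libraries but that of 4 weeks lay above all of db/m. Its genotype effect was 0.53 (SE 0.12), the smallest p of the OXPHOS genes for this effect, with an adjusted p of 0.288 in edgeR, and it was the 1 OXPHOS gene that the Wald test of DESeq2 called, among 274 of 15237 genes (1.8%). Tcirg1, a membrane subunit known from osteoclasts and macrophages, was at 20.2, 15.2, 14.4 and 13.3 CPM in db/m and at 11.9, 14.4, 21.1 and 26.4 CPM in db/db. In these libraries its order with age was downward in db/m and upward in db/db, the log2 difference went from -0.76 to 0.99, and the fitted change was 0.61 per 10 weeks (SE 0.10, adjusted p = 0.267 in edgeR).

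Other V-ATPase genes varied without such an order. Atp6v0c, the ring subunit, was at 9.03 CPM in db/m at 12 weeks and between 12.4 and 30.7 CPM elsewhere, which gave a difference of 1.76 at 12 weeks (SE of counting 0.12) and of -0.28 to -0.51 at the other ages. Atp6v1g1 was higher at 4 of 4 ages (0.49, 0.08, 0.54 and 0.05), and Atp6v0b and Atp6v0d1 were lower in db/db at 4 of 4 ages, with differences of -0.47 to -0.01. The genes with few counts, Atp6v0a4 (0 to 20 counts per library), Atp6v0d2 (1 to 20) and Atp6v1g2 (3 to 48), a form known from brain, passed 1.5-fold in either direction at several ages on these counts.

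Among the remaining genes, Ppa1, a cytosolic pyrophosphatase, was at 76.1 CPM in db/db at 24 weeks and between 14.4 and 30.7 CPM in the other 7 libraries. The difference at 24 weeks was 1.46 (SE of counting 0.07), the largest positive one of the OXPHOS genes with at least 100 counts over that pair, and it rested on that 1 library. Cox10, Cox11, Cox15 and Cox17 build the heme and copper centres of complex IV. Cox10, which makes heme O, was higher in db/db at 4 of 4 ages (0.55, 0.23, 0.47 and 0.07), with a genotype effect of 0.33 (SE 0.11, adjusted p = 0.371 in edgeR). Cox17, the copper chaperone, differed by -0.38, 0.18, 0.13 and -0.09. Cox15, which makes heme A, was at 41.9 to 54.2 CPM over the 8 libraries, and Yjefn3 at 1.93 to 4.57 CPM. Lhpp, a phosphatase, followed the respiratory complexes with 0.74, 0.14, 0.12 and -0.52.

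Over the 4 ages together, the genotype effect was above 0 in 86 of the 101 genes (51.6% of all genes), with a median of 0.16 log2 units beside 0.01 for all genes. An unadjusted p under 0.05 was reached by 14 genes upwards (6.17% of all genes) and by 0 downwards (5.45%). They were Atp6ap1, Ndufv3, Ndufa11, Cox6a1, Ndufc2, Cox10, Ndufa7, Ndufa8, Atp5d, Atp5g3, Atp5l, Ndufab1, Uqcrq and Atp5f1. None passed an adjusted p of 0.05 in edgeR's quasi-likelihood test, in which 0 of 15273 genes passed. The median was 0.07 without 4 weeks, 0.16 without 12 weeks, 0.20 without 24 weeks and 0.26 without 32 weeks. An unadjusted p under 0.05 was then reached upwards by 2 genes without 4 weeks, 3 without 12 weeks, 10 without 24 weeks and 30 without 32 weeks.

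The 2 libraries of 4 weeks were compared with the 6 later libraries, with genotype in the fit. The median was 0.23 log2 units higher at later ages (all genes: 0.03), or 0.101 with total counts only, with 89 of 101 genes above 0 (54.0% of all genes). An unadjusted p under 0.05 was reached by 14 genes upwards (5.35% of all genes) and 0 downwards (4.3%), and none passed an adjusted p of 0.05 in edgeR or in the Wald test of DESeq2, which called 208 of 15237 genes (1.37%). The 14 were Atp6v0e2 (0.54), Cox8b (0.75), Ndufa11 (0.43), Atp6v0a2 (0.70), Cox5b (0.47), Ndufa5, Cox7a2l, Ndufab1, Ndufb7, Ndufa8, Ndufa7, Ndufs7, Cox6a2 and Ndufb3. The difference was carried by db/m, in which the median of later minus 4 weeks was 0.44 with 91 of 101 genes higher later, while in db/db it was 0.03 with 58 higher. Without the db/m library of 4 weeks the median was 0.02, and without the db/db library of 4 weeks it was 0.44. Both libraries of 4 weeks lay below all 6 later ones for 8 genes (5.22% of all genes): Atp6v0a1, Atp6v0a2, Atp6v0e2, Atp6v1b2, Cox5b, Cox7a2l, Ndufb4 and Ndufb7. They lay above all later ones for 0 genes (4.36%).

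The subunits encoded by the mitochondrial genome were lowest in db/m at 4 weeks for 11 of 13 genes, the others being mt-Nd3 and mt-Nd5. The 13 genes summed to 103000 CPM in that library, of which mt-Co1 gave 56740 CPM, and to 117900 to 173600 CPM in the others. The median log2 difference between db/db and db/m was 0.31, -0.16, 0.07 and -0.62 at the 4 ages, where the nuclear genes were at 0.50, 0.19, 0.11 and -0.13. At 12 weeks 11 of 13 mitochondrial genes were lower in db/db while 80 of 102 nuclear ones were higher, and at 32 weeks 13 of 13 were lower, 8 of them past 1.5-fold (12.5% of all genes). The largest difference at 32 weeks was in mt-Nd3 (-1.18), followed by mt-Atp6 (-0.92). The db/m library of 32 weeks had the highest mitochondrial sum (173600 CPM) and also the highest atrial sum, and leaving the mitochondrial genes out of the scaling gave a median for the nuclear genes of -0.11 at 32 weeks.

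Neighbouring pathways gave the following. The 4 genes of complex II (Sdha, Sdhb, Sdhc and Sdhd) followed the nuclear complexes at 4 weeks (0.54) and were at 0.36, 0.05 and 0.08 afterwards, and all 4 had an unadjusted p under 0.05 for the falling change with age. Of 31 genes of the citrate cycle, complex II included, 29 were tested, with medians of 0.47, 0.22, 0.02 and 0.04 at the 4 ages, and 15 had an unadjusted p under 0.05 for the falling change (7.05% of all genes) and 2 for the rising one (4.73%). The 11 genes of fatty acid oxidation gave these values: 11 of 11 were higher in db/db at 4, 12 and 32 weeks and 8 of 11 at 24 weeks, with medians of 0.61, 0.50, 0.11 and 0.26. Of all genes 51.9%, 50.5%, 51.6% and 48.8% were higher at 4, 12, 24 and 32 weeks. For the 11 genes 9 had an unadjusted p under 0.05 in the genotype effect, upwards (median 0.35, 6.17% of all genes). An example was Acadl (0.41, adjusted p = 0.344 in edgeR), and 0 passed after adjustment in edgeR. Of 39 assembly factors 38 were in the table, 4 of which (Cox10, Cox11, Cox15 and Cox17) are also among the 112 genes, and their median differences were 0.45, 0.12, 0.06 and -0.13.

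The 17 regulators of mitochondrial genes had median differences of 0.19, 0.14, 0.02 and 0.05 at the 4 ages. Esrrb, an estrogen-related receptor, varied widely between ages, with -0.94, 1.09, 0.97 and -0.35. Perm1, a muscle co-activator of this programme, was the highest of the 17 in the genotype effect (0.40, adjusted p = 0.417 in edgeR), with differences of 0.83, 0.65, 0.08 and 0.05. Esrrg, of the same family, differed by 0.69, 0.39, 0.32 and -0.14. Ppargc1a, the co-activator PGC-1alpha, was at 0.05, 0.09, -0.04 and -0.88, with its 1 large difference at 32 weeks. That difference rested on the db/m library of 32 weeks, at 353.8 CPM against 151.9 to 222.4 CPM in the others, with db/db of 32 weeks at 191.7 CPM. Nrf1 (-0.13, -0.10, -0.09 and 0.16) and Gabpa (0.20, 0.12, 0.14 and -0.13) encode factors that bind promoters of many respiratory genes.

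Promoters of these genes are shown to make concrete which letters the respiratory genes share and which they do not. RefSeq start sites on GRCm38.p6 gave a window of 300 bases, 250 before and 50 after the start, for 87 of the 112 genes and for 18623 genes of the table. On either strand, the letters GCGCNTGCG, from the motif of NRF1, were found in 21 of the 87 windows (24.1%), against 8.58% of all windows and 13.5% of those of the genes tested. CCGGAAG, bound by ETS factors such as GABPA, was in 19 (21.8%, against 11.3% and 17.3%), and AAGATGGCG, from the YY1 motif, in 7 (8.05%, against 1.85% and 3.06%). TCAAGGTCA, bound by estrogen-related receptors, was in 1 (1.15%, against 0.322% and 0.248%). The MEF2 motif was in 0 windows (0.558% and 0.602% of the others). By complex, NRF1 letters were in 9 of 32 windows of complex I, 2 of 4 of complex III, 1 of 13 of complex IV, 6 of 13 of complex V and 2 of 18 of the V-ATPase.

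The windows of 6 genes follow, in lower case with motif letters in capitals. Ndufs3 (chr2:90904672-90904971, minus strand) and Uqcr11 (chr10:80406772-80407071, minus strand) belong to complexes I and III. Ndufs3 has 2 ETS matches, though ETS letters were in 4 of 32 complex I windows (12.5%, against 17.3% of those of the genes tested). Uqcr11 has 1 ETS and 1 NRF1 match. Cox6a1 (chr5:115348909-115349208, minus strand), the general isoform, has 3 NRF1 matches, of which 2 overlap on opposite strands, and 1 ETS match. Cox7a1 (chr7:30183921-30184220, plus strand) and Cox8b (chr7:140900397-140900696, minus strand), the heart and muscle isoforms with the large differences at 32 weeks, have 0 matches to the 5 motifs in this window. The same held for Cox5a, Cox5b, Cox6b2, Cox7a2, Cox7a2l, Cox7b, Cox7b2 and Cox7c of complex IV, while Cox6b1 and Cox8a have ETS matches. Lack of a match is thus not particular to these 2 isoforms. Atp5g3 (chr2:73911277-73911576, minus strand) has the only match to the estrogen-related receptor motif among the 87 windows, and 1 NRF1 match.
Ndufs3: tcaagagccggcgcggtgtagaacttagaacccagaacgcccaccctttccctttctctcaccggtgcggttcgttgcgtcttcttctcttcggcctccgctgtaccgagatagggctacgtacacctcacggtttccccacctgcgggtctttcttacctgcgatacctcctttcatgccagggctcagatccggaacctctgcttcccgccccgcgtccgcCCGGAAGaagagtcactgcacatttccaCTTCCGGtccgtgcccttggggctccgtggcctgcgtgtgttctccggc
Uqcr11: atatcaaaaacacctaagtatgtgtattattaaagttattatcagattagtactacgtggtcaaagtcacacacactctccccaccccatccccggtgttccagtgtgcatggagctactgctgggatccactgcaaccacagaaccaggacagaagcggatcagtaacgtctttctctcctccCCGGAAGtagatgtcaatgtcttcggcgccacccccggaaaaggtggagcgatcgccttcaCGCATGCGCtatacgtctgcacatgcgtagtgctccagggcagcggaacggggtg
Cox6a1: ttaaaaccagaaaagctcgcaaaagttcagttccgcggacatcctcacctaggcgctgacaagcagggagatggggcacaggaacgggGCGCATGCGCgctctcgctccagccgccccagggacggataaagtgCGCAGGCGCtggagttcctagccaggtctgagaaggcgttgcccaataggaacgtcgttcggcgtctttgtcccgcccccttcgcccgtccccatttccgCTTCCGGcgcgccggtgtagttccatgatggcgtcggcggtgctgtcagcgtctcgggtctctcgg
Cox7a1: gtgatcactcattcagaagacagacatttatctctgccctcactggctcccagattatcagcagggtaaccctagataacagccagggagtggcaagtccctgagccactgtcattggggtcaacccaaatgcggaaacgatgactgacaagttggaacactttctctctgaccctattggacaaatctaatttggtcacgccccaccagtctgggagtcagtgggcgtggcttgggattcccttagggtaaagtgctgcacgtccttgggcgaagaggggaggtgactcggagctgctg
Cox8b: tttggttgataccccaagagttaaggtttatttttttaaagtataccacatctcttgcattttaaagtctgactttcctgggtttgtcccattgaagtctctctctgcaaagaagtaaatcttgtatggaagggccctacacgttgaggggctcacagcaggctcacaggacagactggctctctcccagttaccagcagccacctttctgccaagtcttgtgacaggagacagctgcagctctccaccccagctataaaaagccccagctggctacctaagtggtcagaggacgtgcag
Atp5g3: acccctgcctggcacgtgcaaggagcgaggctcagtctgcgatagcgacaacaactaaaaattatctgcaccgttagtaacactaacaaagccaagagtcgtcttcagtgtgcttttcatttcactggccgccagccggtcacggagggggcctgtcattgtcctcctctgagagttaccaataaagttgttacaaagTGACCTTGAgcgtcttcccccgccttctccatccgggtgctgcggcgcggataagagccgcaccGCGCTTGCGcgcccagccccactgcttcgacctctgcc
These matches are a description of letters, and binding was not measured.

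Reads that fit more than 1 gene limit some of these values. Transcripts of Atp5o share 49.6% of their 31-base stretches with other genes, those of Cox11 47.9%, Atp5g2 40.2%, Uqcrb 34.8% and Ndufb6 34.4%, so that their levels are uncertain where the counting could split reads, while Cox7a1, Cox8b, Uqcrfs1 and Tcirg1 share 2.5% or less. Cox11 overlaps its neighbour Tom1l1, and adding the counts of both gave differences of 0.20, 0.13, -0.05 and -0.48 in place of 0.58, 0.11, 0.34 and -0.13. Gene lengths implied by the deposited counts and FPKM values were also shorter for OXPHOS genes. Their median was 2521 bases against 4940 bases for all tested genes. These are not transcript lengths read from sequence, and that of Cox17 was 7630 bases. Other genes under 1000 bases had a median difference of 0.29 at 4 weeks (306 genes), against 0.46 for the 19 OXPHOS genes of that length, and other genes of 2000 to 4000 bases were at 0.11 (2788 genes), against 0.55 for 31 OXPHOS genes. At 24 weeks the short OXPHOS genes (0.11) were below other genes of their length (0.20), and at 32 weeks the values were -0.20 and -0.14.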

How the data were processed

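RNA-seq libraries of mouse hearts, depleted of ribosomal RNA and strand-specific, were made by the authors. Their processing notes name HISAT2, StringTie 1.3.0 and the build GRCm38 (mm10). The authors deposited read counts and FPKM per gene, with KEGG identifiers, and FPKM equals the count per length and library total. Counts were tested here with edgeR 4.0.16 in R 4.3.3 (TMM scaling, filterByExpr, quasi-likelihood test, Benjamini-Hochberg adjustment over 15273 genes) in 3 fits: genotype with age as a block, later ages against 4 weeks with genotype, and the slope on age of the db/db effect. Within an age, log2 differences used a prior count of 0.5, genes of 10 or more counts in both libraries together and a fold of 1.5, with no test, and their SE covers counting error only. DESeq2 1.42.0 was an alternative. Others were total-count and DESeq2 scaling, scaling without mitochondrial genes, other filters, prior counts and folds, FPKM ratios, fewer ages and leaving out ages or libraries. The fits were tested on simulated data.

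The pathway, gene lists and tests were chosen with earlier results of these data known, and the members of the pathway were then taken by annotation alone. Genes were named by rule: the 2 highest and 2 lowest genes of each complex in each fit, up to 3 each way past 1.5-fold with at least 100 counts at each age, core catalytic subunits and isoform pairs. Neighbouring genes, regulators and other single genes named beside them were chosen after their values were seen. Shared sequence was measured as 31-base stretches. Totals of 14445436 to 26676268 counts set the precision, and the floor was 3 counts. Promoters came from RefSeq, and the NRF1, YY1 and MEF2 motifs were reset after a first search with longer or looser letters had been seen.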

Additional observations from a re-analysis of the deposited data

Results flagged for a closer look

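Effects of opposite sign at different ages were found in Tcirg1 and Ndufs5, and with 1 library per genotype and age the difference between any 2 ages was not tested. The linear change of the genotype difference over the 8 libraries had an unadjusted p of 0.0011 for Tcirg1 (adjusted p = 0.267 in edgeR, called after adjustment by DESeq2) and 0.044 for Ndufs5 (adjusted p = 0.419 in edgeR). For Tcirg1 the log2 difference between db/db and db/m was -0.76 at 4 weeks and 0.99 at 32 weeks. For Ndufs5 it was 1.92 at 12 weeks and -1.99 at 24 weeks, and its reads can be shared with BC002163, as described above.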

How the results depend on the processing

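Each group had 1 library per age, so the values within an age carry no replicate error, and depth limits genes with few counts. The labels carry no replicate numbers, and the genotype effect paired the db/db and db/m libraries of each age through the age block. For that effect, 14 genes were higher at an unadjusted p under 0.05, which became 9 with no age block, 3 with the 3 ages of the series design and 2 to 30 when an age was left out, and DESeq2 called 1 after adjustment. For later ages against 4 weeks, the 14 genes became 4 with linear age, 7 with total counts and 6 to 40 when a later age or a later library was left out. For the change with age, the 41 genes became 21 with DESeq2, 7 with total counts and 3 to 47 when an age was left out. The median of -0.18 became -0.069 with total counts and -0.19 to -0.13 when an age was left out. DESeq2 called 1 gene in each direction after adjustment, and leaving out an age gave 0 to 1 falling. At 4 weeks, the 32 higher genes became 7 with total counts or FPKM ratios and 2 at a fold of 2, and the 2 lower ones became 1 with at least 100 counts, 4 without a filter and 1 at a fold of 2. At 12 weeks, the 4 higher became 2 with total counts, FPKM ratios or a fold of 2, and the 2 lower became 0 with at least 100 counts, 4 without a filter, 1 at a fold of 2 and 1 at a prior count of 5. At 24 weeks, the 4 higher became 2 at a fold of 2. At 32 weeks, the 2 higher became 1 with at least 100 counts and 1 at a fold of 2, and the 6 lower became 3 at a fold of 2. The median at 32 weeks, -0.13, changed sign to 0.021 with total counts and 0.026 with FPKM ratios, which share the unscaled library totals. The causes of the other changes were not tested.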
